A study of Mus musculus with 12 samples.

Results

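The 10 genes described here encode enzymes of glycolysis and its regulation: Hk1, Hk2, Pfkl, Pfkp, Pfkfb3, Aldoa, Gapdh, Pgk1, Pkm and Ldha. They were taken by symbol from the deposited gene table, in which all 10 were found among 21638 genes. Glycolysis splits glucose into pyruvate and yields ATP without oxygen. Hexokinases trap glucose in the cell, phosphofructokinase commits it to breakdown, and lactate dehydrogenase turns pyruvate into lactate, which restores the NAD+ that glyceraldehyde 3-phosphate dehydrogenase uses. Endothelial cells are known to draw much of their ATP from this pathway, and Pfkfb3 is known as a driver of vessel sprouting. Several of these genes are known targets of hypoxia-inducible factors, transcription factors that bind a short core element when oxygen is low.

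RNA came from endothelial cells of the adult mouse brain cortex, isolated by flow cytometry as CD31+, CD41- and CD45- cells. There were 12 libraries in 4 groups of 3: WT; Hdac2 ECKO, with endothelial deletion of the histone deacetylase gene Hdac2 (Hdac2lox/lox:Cdh5CreERT2); Ezh2 ECKO, with endothelial deletion of the histone methyltransferase gene Ezh2 (Ezh2lox/lox:Cdh5CreERT2); and beta-catenin GOF, with constitutive activation of beta-catenin (Ctnnb1lox/lox:Cdh5CreERT2). Cdh5CreERT2 is a tamoxifen-inducible Cre driven in endothelium. The mutants had 5 doses of tamoxifen at 75 mg/kg, and brains were taken after 2 months. The labels do not say whether WT mice carried Cre or were given tamoxifen, nor whether replicates were single animals, so p-values measure the spread between these libraries, which may be technical. Depth ran from 24781070 to 36109975 counts per library.

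The targeted genes gave a weak check of the labels. Hdac2 was at 82.2 to 112 CPM (counts scaled to library size with edgeR's TMM factors) in Hdac2 ECKO and at 104 to 162 in WT, a log2 fold change of −0.42 (edgeR adjusted p = 0.225). Ezh2 was not lower in the libraries of that label, which are called Ezh2 ECKO-labelled below: it was at 5.19 to 11.7 CPM there and at 2.69 to 8.88 in WT, a log2 fold change of 0.40 (edgeR adjusted p = 0.615). Ctnnb1 was at 478 to 695 CPM in beta-catenin GOF and 546 to 809 in WT. Counts over a whole gene do not show the loss of single exons. The 12 endothelial markers were all detected and summed to between 7851 and 10470 CPM in every library. Single markers moved apart in Hdac2 ECKO, where 1 of the 12 reached an adjusted p under 0.05, against 9.2% of all genes tested. This was Erg, which rose (log2 fold change 1.06, edgeR adjusted p = 0.036), while Cldn5 was at −1.10 (edgeR adjusted p = 0.1). By contrast, microglial and leukocyte markers summed to at most 10.2 CPM. Erythroid markers were abundant, at 36120 to 61350 CPM in WT and less in every mutant library, as given below with other cell types. Within their groups, Hdac2 ECKO replicate 2 and replicate 2 of the Ezh2 ECKO-labelled libraries stood apart on the first principal component (37.5% of the variance), toward WT. Member counts, medians and the summed level are given with and without them below.

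The sequences just before the start sites of the 4 most abundant members and of Hk2, the least abundant, are shown because these genes are known targets of hypoxia-inducible factors. Windows with no annotated exon base were chosen; of the 3 RefSeq starts of Aldoa that leaves 1, and another Aldoa window held no core. Each is the 250 bases before a RefSeq start (GRCm38.p6, the assembly of the mm10 build), read 5′ to 3′ on the gene's strand. Capitals mark every ACGTG or GCGTG on either strand, the core letters of the hypoxia response element; CACGTG, where it occurs, holds ACGTG on both strands.
Gapdh: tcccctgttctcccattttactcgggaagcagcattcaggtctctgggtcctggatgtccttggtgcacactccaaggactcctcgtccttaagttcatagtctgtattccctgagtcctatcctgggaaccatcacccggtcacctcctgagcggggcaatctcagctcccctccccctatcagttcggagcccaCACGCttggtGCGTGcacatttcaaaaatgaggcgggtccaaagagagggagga
Aldoa: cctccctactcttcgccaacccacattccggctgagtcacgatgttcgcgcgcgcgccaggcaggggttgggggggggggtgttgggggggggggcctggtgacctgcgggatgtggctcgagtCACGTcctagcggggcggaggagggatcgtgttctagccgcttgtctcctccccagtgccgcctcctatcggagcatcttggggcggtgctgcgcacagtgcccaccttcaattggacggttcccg
Pgk1: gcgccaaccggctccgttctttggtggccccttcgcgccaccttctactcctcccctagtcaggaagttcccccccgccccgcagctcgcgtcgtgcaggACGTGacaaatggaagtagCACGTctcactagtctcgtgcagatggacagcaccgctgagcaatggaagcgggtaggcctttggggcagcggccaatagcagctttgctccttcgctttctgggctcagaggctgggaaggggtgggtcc
Ldha upstream start: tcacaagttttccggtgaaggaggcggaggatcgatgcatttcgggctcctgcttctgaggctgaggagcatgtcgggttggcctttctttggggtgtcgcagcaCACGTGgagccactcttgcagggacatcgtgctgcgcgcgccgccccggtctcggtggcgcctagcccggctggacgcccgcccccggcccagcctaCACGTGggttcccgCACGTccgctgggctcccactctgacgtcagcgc
Ldha downstream start: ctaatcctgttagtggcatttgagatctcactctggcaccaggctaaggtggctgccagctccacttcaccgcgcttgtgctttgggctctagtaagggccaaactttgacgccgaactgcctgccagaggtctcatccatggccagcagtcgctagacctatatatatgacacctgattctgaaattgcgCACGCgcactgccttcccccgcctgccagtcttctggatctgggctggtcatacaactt
Hk2: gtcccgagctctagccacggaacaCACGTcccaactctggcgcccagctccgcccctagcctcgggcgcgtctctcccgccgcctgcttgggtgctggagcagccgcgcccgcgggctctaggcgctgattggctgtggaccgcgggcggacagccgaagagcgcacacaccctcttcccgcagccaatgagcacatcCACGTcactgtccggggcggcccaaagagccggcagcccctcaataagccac

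The windows lie at chr6:125165774-125166023 for Gapdh (minus strand), chr7:126799255-126799504 for Aldoa (minus), chrX:106186850-106187099 for Pgk1 (plus), chr7:46845554-46845803 and chr7:46846832-46847081 for Ldha (plus), and chr6:82774455-82774704 for Hk2 (minus). None of these 6 windows overlaps an exon of the GENCODE M21 annotation. ACGTG or GCGTG was present in 13 of the members' 16 windows, and in at least 1 window of each of the 10 genes. A gene with several windows has more chances of a match. The share by gene was not computed over all genes, so the count by gene has no background. Of all 32851 RefSeq windows of the same length, 38.6% held either core; 16.6% held ACGTG and 28.2% held GCGTG. The members' windows were richer in G and C, with a median of 62.8% against 52.4% over all windows, and windows of the same gene can overlap. TATAAA was in none of the 16 windows and in 12.4% of all windows. The Ldha upstream window held the most core letters, 5 matches that include both strands of 2 CACGTG hexamers. The bases just after the upstream Ldha start were not found in a GENCODE transcript. A match describes the letters and does not show binding.

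In WT the 10 genes spanned a wide range. Levels were compared between genes only per length, as CPM per kilobase of the exon length in the table. Ldha, whose product makes lactate, was highest at 133 ± 24.0 CPM per kilobase (SD, n = 3). Aldoa followed at 85.0 ± 23.7, Gapdh at 84.0 ± 20.1 and Pgk1 at 52.1 ± 12.7, and each of these overlapped its neighbour in this order. Pkm, the pyruvate kinase gene, lay below them without overlap at 24.4 ± 9.66 CPM per kilobase. The enzymes of the early, committing steps were far lower, with Pfkl at 2.79 ± 1.22, Hk1 at 1.54 ± 0.48, Pfkfb3 at 1.24 ± 1.33 and Pfkp at 1.24 ± 0.41, overlapping their neighbours. Hk2 was nearly absent. Ldha was also first, and Hk2 last, in each mutant group. In share of the summed CPM of the 10 genes, Ldha made up 32.3% in WT, Gapdh 24.6% and Aldoa 22.3%.

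**Figure D1:**
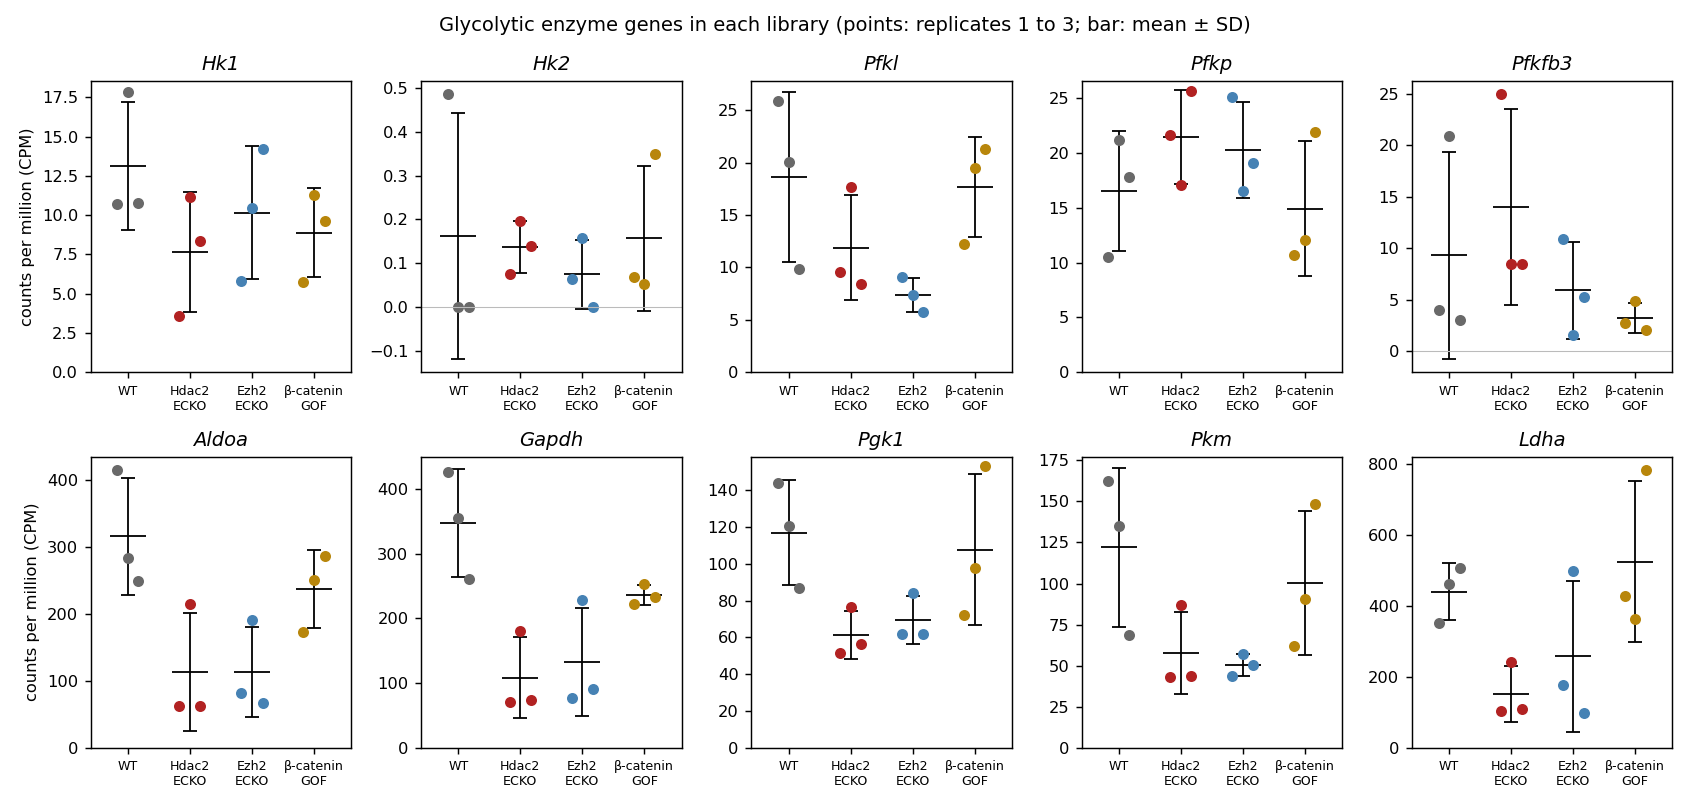
CPM (vertical axes, linear, a separate scale for each gene) of the 10 genes in each of the 12 libraries, by group, with mean and SD as bars. For Aldoa, Gapdh, Pgk1, Pkm and Ldha, Hdac2 ECKO replicates 1 and 3 lie below every WT library, and replicate 2 lies between them and the WT mean.

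As a whole, the summed level was lowest in Hdac2 ECKO and in the Ezh2 ECKO-labelled libraries. It was 1552, 1434 and 1214 CPM in WT replicates 1 to 3 and 392, 855 and 395 CPM in Hdac2 ECKO. The Ezh2 ECKO-labelled libraries had 493, 1095 and 412 CPM and beta-catenin GOF 990, 1103 and 1661 CPM. In this sum all 6 libraries of the first 2 mutant groups lay below all 3 WT libraries, while beta-catenin GOF overlapped WT. The mean log2 CPM of the 9 tested members weights them equally. By that measure Hdac2 ECKO replicate 2 (5.656) lay above WT replicate 3 (5.604), so those groups overlapped. Its group means were 5.985 in WT, 5.178 in Hdac2 ECKO, 5.112 in the Ezh2 ECKO-labelled libraries and 5.666 in beta-catenin GOF. For the sum, the ratio of group means to WT was −1.35 on the log2 scale for Hdac2 ECKO. It was −1.07 for the Ezh2 ECKO-labelled libraries and −0.16 for beta-catenin GOF. Without Hdac2 ECKO replicate 2 the first was −1.83, and without replicate 2 of the Ezh2 ECKO-labelled libraries the second was −1.63. The 10 genes were chosen with earlier results known, so the sum has no test. In bulk libraries, fewer cells of a type and less RNA per cell cannot be told apart.

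For Hdac2 ECKO against WT, 9 of the 10 members had enough counts to be tested and 1, Gapdh, passed as lower at an adjusted p under 0.05; none passed as higher. Over all 12577 genes tested, 9.2% passed, 5.38% as lower, so 1 member of 9 is near the background. The groups did not overlap, with Hdac2 ECKO lower, for 4 of the 9 (Aldoa, Gapdh, Pgk1 and Ldha), against 18.2% of all genes. The members' median log2 fold change was −0.93, that of all tested genes 0.10. Of the 9, 7 were below 0. Without Hdac2 ECKO replicate 2 the median was −1.19, and over all fits without 1 library it ran from −1.19 to −0.82.

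Gapdh, at chr6:125161715-125166467 on the minus strand of mm10, encodes the enzyme that oxidises glyceraldehyde 3-phosphate. It was at 426, 355 and 260 CPM in WT and at 70.2, 180 and 73.2 CPM in Hdac2 ECKO. Every Hdac2 ECKO library was below every WT library. The mean went from 347 ± 83.2 to 108 ± 62.8 CPM (SD, n = 3 each), a 3.22-fold difference, and the log2 fold change was −1.69 (SE 0.42, edgeR adjusted p = 0.036). It passed in all 9 other settings tried and in 2 of the 6 fits without 1 library. Without WT replicate 1, WT replicate 2, Hdac2 ECKO replicate 1 or Hdac2 ECKO replicate 3 its adjusted p reached up to 0.165; those 4 fits called at most 1 gene in the whole table. Gapdh, Aldoa, Pgk1 and Ldha are known to have processed pseudogene copies, and how reads shared with such copies were counted is not given in the sources used here.

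Aldoa encodes the aldolase that cleaves fructose 1,6-bisphosphate, the step before Gapdh. It was at 415, 283 and 248 CPM in WT and at 62.5, 215 and 62.6 CPM in Hdac2 ECKO, again without overlap. The log2 fold change was −1.48 (SE 0.48, edgeR adjusted p = 0.0589). The table's Aldoa row, chr7:126795234-126809108 on the minus strand, spans 2 GENCODE M21 gene models of that name and 11441 bases of Fam57b on the opposite strand. The library kit does not mark strand, so counts there may be shared; Fam57b's own mean was 417 counts against 5967 for Aldoa.

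Further down the pathway, Pgk1 encodes phosphoglycerate kinase, the first ATP-forming step. It was at 144, 120 and 87.0 CPM in WT and at 51.6, 76.4 and 56.1 CPM in Hdac2 ECKO, a log2 difference of −0.93 ± 0.30 (SE; edgeR adjusted p = 0.0582). Pkm, which encodes the enzyme of the last ATP-forming step, was at 162, 135 and 68.5 CPM in WT and at 43.0, 86.7 and 43.4 CPM in Hdac2 ECKO. Its groups overlapped through Hdac2 ECKO replicate 2, and the log2 fold change was −1.08 (SE 0.38, edgeR adjusted p = 0.0717). Ldha was at 353, 461 and 508 CPM in WT and at 105, 242 and 109 CPM in Hdac2 ECKO. The groups did not overlap, and the log2 fold change was −1.54 (SE 0.50, edgeR adjusted p = 0.0603). None of the 3 passed the threshold here. Without Hdac2 ECKO replicate 2 these 3, Aldoa and Gapdh passed as lower, in a fit that called 2220 genes in all instead of 1157; Aldoa was then at −2.39 and Ldha at −2.09. Without WT replicate 3 there were 3 called members among 1868 called genes. The other fits without 1 library called no member and at most 1 gene in all.

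None of the early-step genes passed. Hk1, the main hexokinase gene here, was at 10.7, 17.8 and 10.8 CPM in WT and at 3.56, 11.1 and 8.32 CPM in Hdac2 ECKO, with a log2 fold change of −0.77 (edgeR adjusted p = 0.233). Hk2, the insulin- and hypoxia-responsive hexokinase gene, had a mean of 4 counts over the 12 libraries and was not tested. It had 14 counts in WT replicate 1 and 0 in the other WT libraries, where 0 allows up to 0.095 and 0.107 CPM (3 counts, counting error only). That limit takes counts as independent and may be too low. In every library between 79.5% and 84.0% of the gene counts from 10 to 50 were even, and the reason was not tested. Hdac2 ECKO had 2, 6 and 4 Hk2 counts, the Ezh2 ECKO-labelled libraries 2, 4 and 0, and beta-catenin GOF 2, 2 and 12. At this depth no Hk2 difference was detectable.

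Pfkl and Pfkp encode the liver-type and platelet-type subunits of phosphofructokinase, the committing step. Pfkl was at 25.9, 20.1 and 9.86 CPM in WT and at 9.54, 17.6 and 8.46 CPM in Hdac2 ECKO, a log2 fold change of −0.65 (edgeR adjusted p = 0.256). Pfkp was at 10.5, 21.2 and 17.9 CPM in WT and at 21.7, 17.1 and 25.6 CPM in Hdac2 ECKO, a log2 fold change of 0.37 (edgeR adjusted p = 0.461). Pfkp turned to −0.31 when a trend on gene length was removed. Its row overlaps Pitrm1 on the opposite strand over 748 bases. Without Hdac2 ECKO replicate 2, Hk1 was at −1.19 and Pfkl at −1.11. Pfkfb3, which makes the activator fructose 2,6-bisphosphate, varied most within groups: it was at 4.02, 20.9 and 3.06 CPM in WT and at 24.9, 8.48 and 8.53 CPM in Hdac2 ECKO. Its log2 fold change was 0.58 with an SE of 0.73 (edgeR adjusted p = 0.603); it was −0.10 with sample quality weights and −0.16 without Hdac2 ECKO replicate 1.

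**Figure D2:**
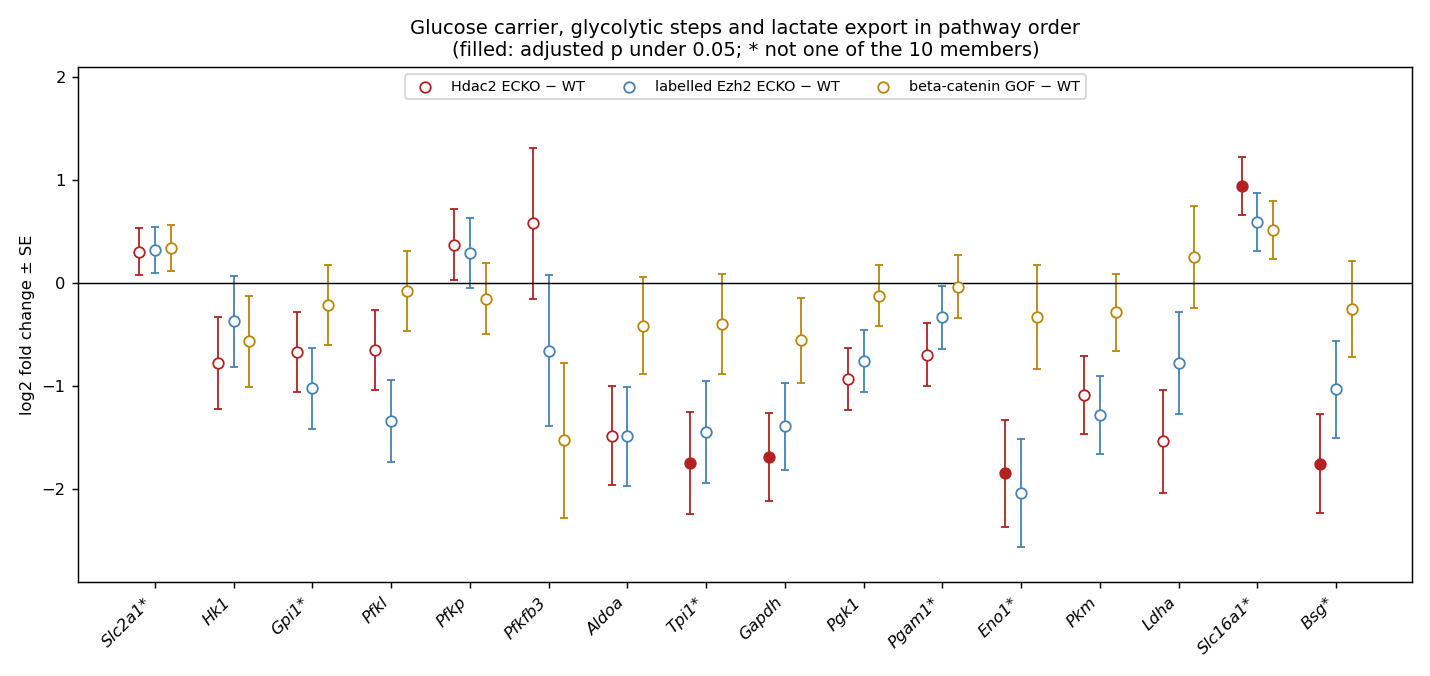
Log2 fold change against WT with its SE (vertical axis) for genes in the order of the pathway, from the glucose carrier Slc2a1 to the lactate carrier Slc16a1 and its partner Bsg, in the 3 mutant groups. Filled points passed the adjusted threshold; in Hdac2 ECKO, Tpi1, Gapdh, Eno1 and Bsg are filled below 0 and Slc16a1 above it.

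In the Ezh2 ECKO-labelled libraries, none of the 9 tested members passed against WT in the edgeR fit; 5 had an unadjusted p under 0.05 (24.7% of all genes did), and DESeq2 called 4 and limma voom with sample quality weights 6, all lower. Of all 12577 genes, edgeR called 1.03% (129), DESeq2 1271 and limma voom 3743. Groups did not overlap, with the mutant lower, for 5 of 9 members (Pfkl, Aldoa, Gapdh, Pgk1 and Pkm) and for 10.9% of all genes. The median log2 fold change of the members was −0.77, that of all genes 0.05. Without replicate 2 of this group the members' median was −1.34, and with quality weights −1.39. Over all fits without 1 library the members' median ran from −1.34 to −0.71.

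By gene, Pkm was the most even within the group, at 43.8, 57.2 and 50.1 CPM against 162, 135 and 68.5 in WT, with a log2 difference of −1.28 ± 0.38 (SE; edgeR adjusted p = 0.079). Pfkl was at 9.04, 7.36 and 5.71 CPM, all below WT, with a log2 difference of −1.34 ± 0.40 (SE; edgeR adjusted p = 0.0788). For the remaining abundant members, replicate 2 was the highest of its group. Gapdh was at 77.4, 229 and 91.3 CPM, a log2 difference of −1.39 ± 0.42 (SE; edgeR adjusted p = 0.0817). Aldoa was at 81.5, 190 and 66.5 CPM, a log2 difference of −1.49 ± 0.48 (SE; edgeR adjusted p = 0.0926). Ldha was at 177, 499 and 97.8 CPM, so that replicate 2 lay within the WT range, and its log2 fold change was −0.77 (edgeR adjusted p = 0.343), which was −1.68 without that library. Pgk1 was at 62.0, 84.4 and 61.8 CPM, a log2 fold change of −0.75 (edgeR adjusted p = 0.142). Without replicate 2 of this group 4 members passed, all lower, among 2328 genes called in all, and without WT replicate 3 it was 3 among 1138. The other fits without 1 library called no member and from 2 to 7 genes in all.

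The other 3 tested members gave no difference beyond the spread between these libraries. Hk1 was at 5.80, 10.4 and 14.2 CPM, Pfkp at 25.1, 16.6 and 19.1 CPM and Pfkfb3 at 10.9, 1.57 and 5.31 CPM, with edgeR adjusted p-values from 0.606 to 0.63.

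In beta-catenin GOF no member passed against WT, and none had an unadjusted p under 0.05; DESeq2 and limma voom also called none. Here 0% of all genes passed in the edgeR fit, with 762 genes (6.06%) at an unadjusted p under 0.05, 38 called by DESeq2 and 26 by limma voom. Gapdh was at 223, 253 and 233 CPM, just below the WT range of 260 to 426, and was the only member without overlap, where 5.87% of all genes were lower without overlap. Its log2 fold change was −0.56 (SE 0.41, edgeR adjusted p = 0.911). Ldha was at 428, 362 and 784 CPM, with replicate 3 above every WT library, and its log2 fold change was 0.25 (SE 0.49, edgeR adjusted p = 0.966). Pgk1 was at 72.4, 97.6 and 153 CPM, Pkm at 62.0, 90.9 and 148 CPM, and Aldoa at 173, 251 and 287 CPM, each overlapping WT. Replicate 3 was the highest of its group for all 4 of these genes. Pfkfb3 was at 2.80, 4.85 and 2.09 CPM, a log2 difference of −1.52 ± 0.75 (SE; edgeR adjusted p = 0.841), which was −0.12 without WT replicate 2, its highest WT library. Hk1 (5.73 to 11.3 CPM), Pfkl (12.3 to 21.3 CPM) and Pfkp (10.7 to 22.0 CPM) also overlapped WT.

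The mutants were then compared with each other, using the same fit. No member passed between Hdac2 ECKO and the Ezh2 ECKO-labelled libraries by edgeR, DESeq2 or limma voom, none had an unadjusted p under 0.05, and all 9 overlapped. Of all genes 0.0239% passed, 8.19% had an unadjusted p under 0.05 and 13.2% did not overlap. The largest difference was for Pfkfb3, a log2 difference of 1.24 ± 0.74 (SE; edgeR adjusted p = 0.664). Between beta-catenin GOF and Hdac2 ECKO no member passed in the edgeR fit (0.0716% of all genes did), while 5 had an unadjusted p under 0.05 (21.1% of all genes did), DESeq2 called 1 and limma voom 6. Over the whole table DESeq2 called 533 genes here and limma voom 3339. Of all genes, 16.1% were higher and 15.9% lower in beta-catenin GOF without overlap. Ldha was higher in beta-catenin GOF without overlap, by 1.79 on the log2 scale (SE 0.51, edgeR adjusted p = 0.168), as was Gapdh, by 1.13 (SE 0.42, edgeR adjusted p = 0.17). Pfkfb3 lay the other way without overlap, at −2.10 (SE 0.76, edgeR adjusted p = 0.17). Between beta-catenin GOF and the Ezh2 ECKO-labelled libraries no member passed (0.0636% of all genes did), 4 had an unadjusted p under 0.05 (13.2% of all genes did), DESeq2 called none and limma voom 4, against 144 and 1462 of all genes. Without Hdac2 ECKO replicate 2 the former contrast gave 3 called members among 541 called genes. Without replicate 2 of the Ezh2 ECKO-labelled libraries the latter gave 2 among 731. The other fits without 1 library called no member in either contrast, and at most 3 and 9 genes in all. Against the Ezh2 ECKO-labelled libraries, Pfkl (1.26) and Pkm (1.00) were higher in beta-catenin GOF without overlap, as were 7.97% of all genes. The edgeR adjusted p-values of Pfkl and Pkm were 0.285 and 0.321.

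Ratios of isoenzyme genes within a library were computed after the values had been seen, in 6 comparisons. The log2 ratio of Pfkp to Pfkl CPM was −1.30, 0.08 and 0.86 in WT and 1.48, 1.17 and 1.74 in the Ezh2 ECKO-labelled libraries, above every WT library. In Hdac2 ECKO it was 1.18, −0.05 and 1.60, and in beta-catenin GOF −0.20, −0.69 and 0.05, both overlapping WT. The log2 ratio of Ldha to Ldhb, the gene of the subunit that favours lactate oxidation, was 2.65, 3.33 and 2.93 in WT and 2.17, 2.46 and 1.08 in the Ezh2 ECKO-labelled libraries, below every WT library. For both ratios the difference between the Ezh2 ECKO-labelled libraries and WT (1.58 and −1.07) gave p = 0.1 in a two-sided exact permutation test, the smallest p that 3 against 3 allows, and 0.3 after Benjamini-Hochberg adjustment. Without 1 library the first ran from 0.99 (WT replicate 1 left out) to 2.07 (WT replicate 3 left out) and the second from −1.34 to −0.66 (replicate 2 or 3 of the Ezh2 ECKO-labelled libraries left out). Pfkp is the longer gene, with 13401 bases of exon against 6675 for Pfkl, and levels followed gene length differently between libraries. For the Ezh2 ECKO-labelled libraries against WT, removing the length trend moved the log2 fold change of Pfkp from 0.29 to −0.15. That of Pfkl moved from −1.34 to −1.50. The ratio itself was not recomputed without the trend, so the part of length in it was not tested.

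**Figure D3:**
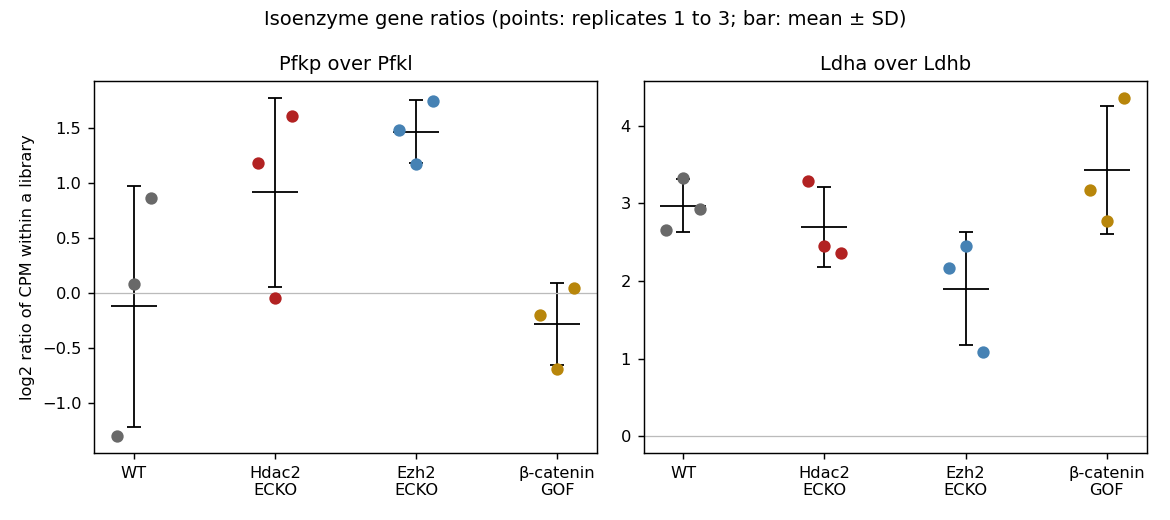
Log2 ratio of CPM within each library (vertical axis) for Pfkp over Pfkl and for Ldha over Ldhb, by group; points are libraries and bars the mean and SD. The Ezh2 ECKO-labelled libraries lie above WT for Pfkp over Pfkl and below WT for Ldha over Ldhb.

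The remaining enzymes of the pathway filled in the steps between the members. Of 19 other glycolytic enzyme genes, 11 were tested, and 2 passed in Hdac2 ECKO, both lower (5.38% of all genes passed as lower). Eno1, which encodes enolase, was at 336, 387 and 168 CPM in WT and at 46.6, 151 and 50.3 CPM in Hdac2 ECKO, a log2 difference of −1.84 ± 0.52 (SE; edgeR adjusted p = 0.0428). Tpi1, which encodes triose phosphate isomerase, was at 258, 159 and 123 CPM in WT and at 28.0, 89.2 and 43.8 CPM in Hdac2 ECKO, a log2 difference of −1.74 ± 0.50 (SE; edgeR adjusted p = 0.0435). Both were below every WT library. Neither passed once the length trend was removed, with Eno1 at −1.98 (edgeR adjusted p = 0.0503) and Tpi1 at −1.35 (edgeR adjusted p = 0.0656). Each passed in 2 of the 6 fits without 1 library, with an edgeR adjusted p of up to 0.181. Gpi1, the gene of the isomerase after hexokinase, had a log2 fold change of −0.67 (edgeR adjusted p = 0.237), and Pgam1, the phosphoglycerate mutase gene, −0.69 (edgeR adjusted p = 0.133). The list's median log2 fold change was −0.03 in Hdac2 ECKO; isoenzyme genes such as Pfkm (0.62) and the low-count Pfkfb4 (1.63) lay above 0. In the Ezh2 ECKO-labelled libraries none of the 11 passed and 4 had an unadjusted p under 0.05 (24.7% of all genes did). Eno1 was at −2.03 there (edgeR adjusted p = 0.0642) and Tpi1 at −1.44 (edgeR adjusted p = 0.103). In beta-catenin GOF none passed and none had an unadjusted p under 0.05.

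Carriers at the 2 ends of the pathway did not move in 1 direction. Slc2a1, the blood-brain barrier glucose carrier, was at 588, 521 and 498 CPM in WT and at 621, 728 and 637 CPM in Hdac2 ECKO, a log2 fold change of 0.31 (edgeR adjusted p = 0.355), and at 0.32 and 0.34 in the other 2 contrasts. Slc16a1, the lactate carrier MCT1, rose in Hdac2 ECKO, from 456 ± 93.1 to 876 ± 209 CPM (SD, n = 3 each), by 0.94 on the log2 scale (SE 0.28, edgeR adjusted p = 0.0497). Bsg, which encodes basigin, the glycoprotein that brings MCT1 to the cell surface, fell from 34160 ± 5239 to 10160 ± 6505 CPM, a log2 difference of −1.75 ± 0.48 (SE; edgeR adjusted p = 0.0405). With the length trend removed Slc16a1 was at 0.93 (edgeR adjusted p = 0.0571) and Bsg at −1.28 (edgeR adjusted p = 0.0506). Each passed in 2 of the 6 fits without 1 library, with an edgeR adjusted p of up to 0.212 for Slc16a1 and 0.173 for Bsg. Of the 6 tested carriers, these 2 passed in Hdac2 ECKO, none in the Ezh2 ECKO-labelled libraries and none in beta-catenin GOF. Of all genes 9.2%, 1.03% and 0% passed in the same order.

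Pyruvate entry into mitochondria and its control had 13 tested genes, with none called in Hdac2 ECKO. In the Ezh2 ECKO-labelled libraries 1 was called, where 1.03% of all genes were. Pdk1, which encodes a kinase that shuts pyruvate dehydrogenase, rose in the Ezh2 ECKO-labelled libraries, from 5.34, 5.86 and 5.02 CPM in WT to 13.7, 16.1 and 30.4 CPM, a log2 difference of 1.89 ± 0.40 (SE; edgeR adjusted p = 0.0476). With the length trend removed it was at 1.63 (edgeR adjusted p = 0.055). Over the 9 other settings it lay between 1.63 and 1.95 and passed in 5. It passed in 2 of the 6 fits without 1 library, with an edgeR adjusted p of up to 0.168. In beta-catenin GOF Pdk1 was at 8.80, 10.8 and 17.6 CPM, above WT without overlap (log2 fold change 1.20, edgeR adjusted p = 0.692). None of the 7 pentose phosphate genes and none of the 3 tested gluconeogenesis genes passed in any of the 3 contrasts; Taldo1, the transaldolase gene, came nearest, at −1.51 in Hdac2 ECKO (SE 0.49, edgeR adjusted p = 0.0596).

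Genes of hypoxia signalling were lists of their own. Of 7 tested regulators 1 passed as higher in Hdac2 ECKO: Arnt, the partner subunit of the hypoxia-inducible factors. Of all genes 9.2% passed there in either direction. Arnt was at 10.9, 10.4 and 13.6 CPM in WT and at 28.5, 23.1 and 28.0 CPM in Hdac2 ECKO. Its log2 difference was 1.19 (SE 0.30, edgeR adjusted p = 0.036). Hif1a, which encodes the oxygen-regulated subunit, was at 80.4, 78.5 and 96.3 CPM in WT and at 230, 99.7 and 150 CPM in Hdac2 ECKO (log2 difference 0.91, edgeR adjusted p = 0.0822). Epas1, the gene of its endothelial relative, was at 0.75 (edgeR adjusted p = 0.0701). Of 11 other hypoxia-inducible genes, 1 passed in Hdac2 ECKO, Kdm3a, a histone demethylase gene, with a log2 difference of 0.94 ± 0.24 (SE; edgeR adjusted p = 0.036); the list's median was −0.18. With the length trend removed, Arnt was at 0.77 (edgeR adjusted p = 0.0714) and Kdm3a at 0.50 (edgeR adjusted p = 0.133). Each passed in 2 of the 6 fits without 1 library, with an edgeR adjusted p of up to 0.16 for Arnt and 0.17 for Kdm3a. No gene of these 2 lists passed in the other 2 contrasts, and none of the 7 other regulators of glycolysis, such as Foxo1 and Klf2, passed in any.

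**Figure D4:**
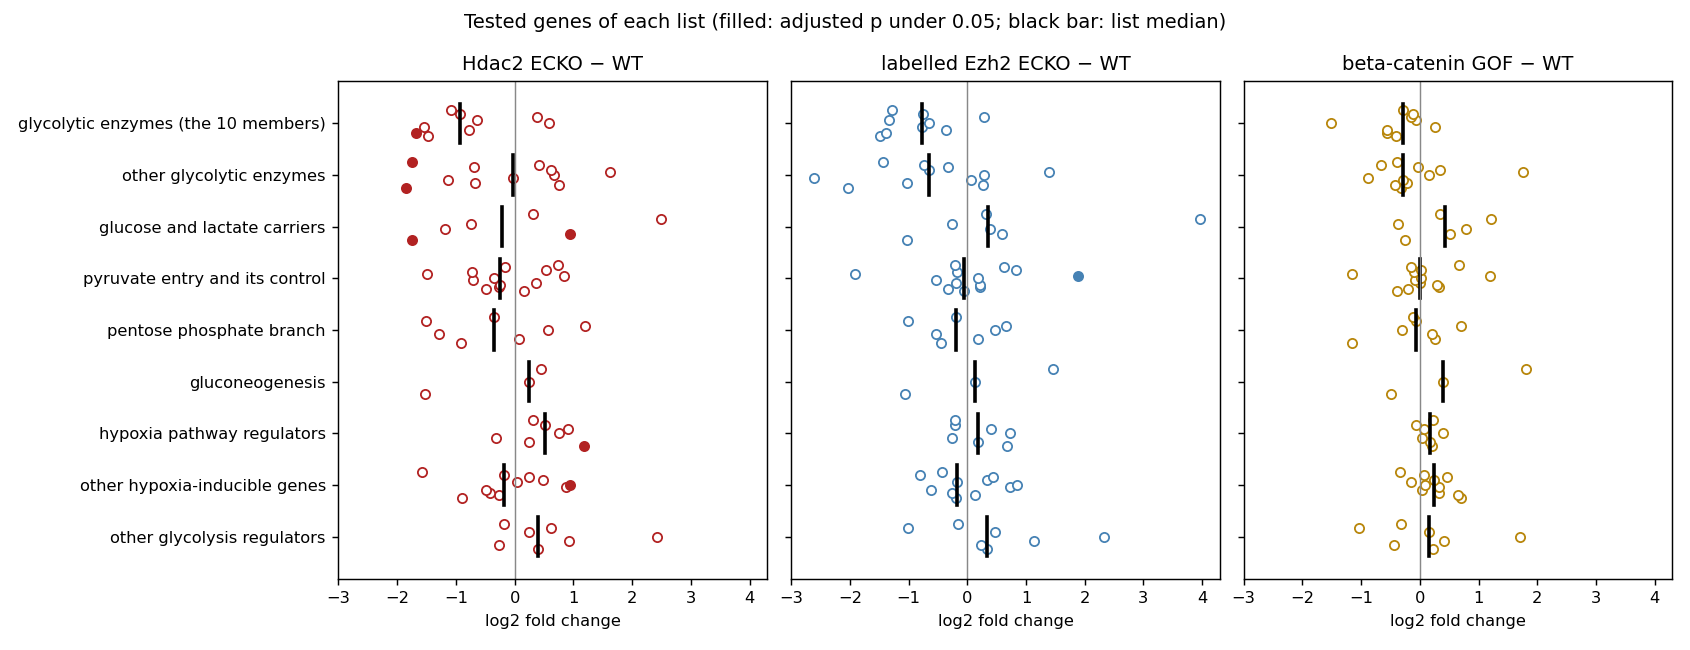
Log2 fold change against WT (horizontal axis) of every tested gene in the 9 gene lists, by contrast; filled points passed the adjusted threshold and black bars are list medians. The members' median is the lowest of the 9 against WT in Hdac2 ECKO (−0.93) and in the Ezh2 ECKO-labelled libraries (−0.77).

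Likeness between the members was measured from library to library. With each gene's log2 CPM centred over the 12 libraries, Aldoa and Gapdh differed by a root mean square of 0.227, Pgk1 and Pkm by 0.247, and Pfkl and Pkm by 0.299. Ldha was 0.481 from its nearest member, Aldoa. Pfkfb3 (1.24) and Pfkp (0.708) were farthest from the mean of the tested members, and Pgk1 (0.194) was nearest to it. Among 3218 genes with a mean of at least 50 CPM, those nearest to the members' mean were Actb (0.145), Phax (0.147), Oser1 (0.174), Puf60 (0.182) and Smu1 (0.184). No other listed glycolytic gene was among the nearest 10 by root mean square. Ranking by correlation instead shared 2 of these 5, Actb and Phax. It placed Eno1 at rank 7 of the 3218 (r = 0.947), while Eno1 had rank 2242 by root mean square (0.725).

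Properties of the libraries moved with the members' level. Mean log2 CPM of the 2516 genes with the most exon bases (at least 7663) minus that of the 2516 with the fewest (at most 2420) was −0.62, −0.48 and −0.45 in WT and 0.70, 0.14 and 0.55 in Hdac2 ECKO. It was 0.37, −0.66 and 0.46 in the Ezh2 ECKO-labelled libraries and −0.41, −0.33 and −0.30 in beta-catenin GOF. The 4 libraries with the lowest summed member level, between 392 and 493 CPM, were the 4 with the highest length difference. With the length trend removed from every library, Gapdh still passed in Hdac2 ECKO (log2 fold change −1.63, edgeR adjusted p = 0.0417), the members' median was −1.17 in Hdac2 ECKO and −0.94 in the Ezh2 ECKO-labelled libraries, and Pgk1 in Hdac2 ECKO moved from −0.93 to −0.42. The part of other library properties that go with gene length was not tested.

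Markers of other cells also differed between groups. The 5 erythroid genes summed to 36120 to 61350 CPM in WT, 401 to 21670 in Hdac2 ECKO, 2518 to 6661 in the Ezh2 ECKO-labelled libraries and 510 to 35350 in beta-catenin GOF, with none at 0 throughout a group; Alas2 passed as lower in Hdac2 ECKO. Hdac2 ECKO replicates 1 and 3 had 21670 and 972 erythroid CPM at nearly the same summed member level, 392 and 395 CPM. Beta-catenin GOF replicate 2 had 510 erythroid CPM and a summed member level of 1103. Other libraries went the other way. The WT libraries had the highest erythroid sums of the 12, at summed member levels of 1214 to 1552 CPM. Among the Ezh2 ECKO-labelled libraries, replicate 2 was highest in both, with 6661 erythroid CPM and a summed member level of 1095. The 11 pericyte and smooth muscle genes summed to 67.3 to 123 CPM in WT and to 129 to 316 in Hdac2 ECKO. They summed to 56.7 to 72.9 CPM in the Ezh2 ECKO-labelled libraries and to 121 to 383 in beta-catenin GOF. Cnn1 was at 0 in WT. Of the 10 tested, 4 (Pdgfrb, Rgs5, Cspg4 and Myh11) passed as higher in Hdac2 ECKO, where 9.2% of all genes passed in either direction. The 7 astrocyte genes summed to 24.0 to 35.8 CPM in WT, 50.7 to 76.2 in Hdac2 ECKO, 44.1 to 79.8 in the Ezh2 ECKO-labelled libraries and 37.0 to 54.3 in beta-catenin GOF, where Aqp4 was at 0. The 7 neuronal genes, nearly all of it Stmn2, summed to 160 to 301, 63.3 to 112, 178 to 422 and 118 to 248 CPM in the same order. Oligodendrocyte genes summed to between 13.4 and 80.04 CPM over the 12 libraries and fibroblast genes to at most 4.18. Their part in the result was not tested.

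**Figure D5:**
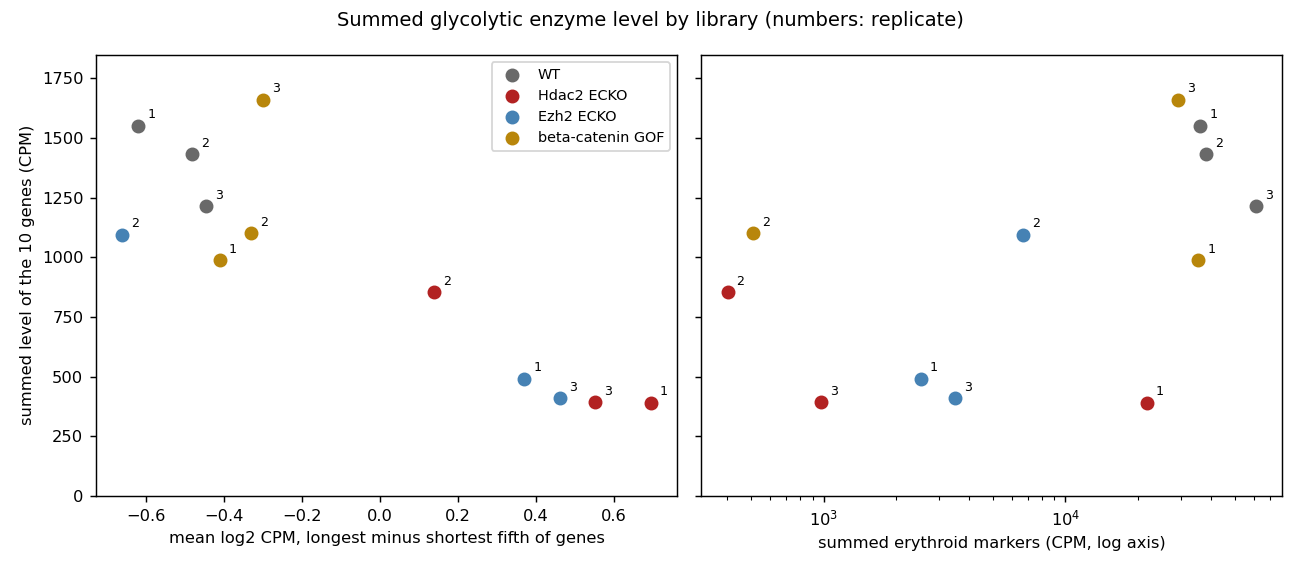
Summed CPM of the 10 genes (vertical axis) in each library against the log2 difference between the longest and the shortest genes (left) and the summed erythroid markers in CPM on a log axis (right); numbers are replicates. The 4 libraries below 500 CPM lie at the right of the left panel, from 0.37 to 0.70, and are spread over the right panel, from 972 to 21670 CPM. The WT libraries lie farthest right in the right panel, from 36120 to 61350 CPM.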

How the data were processed

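The deposited table holds whole-number counts per gene for 12 libraries, although its title calls them normalized; totals differed between libraries. Per the submitters' processing notes, the authors used FastQC, cutadapt, STAR, featureCounts and DESeq2 on the mm10 build; versions and the handling of multi-mapping reads are not given in the sources used here. The exon length of each gene is the deposited table's own column, in bases per the file headers. The 12577 of 21638 genes whose mean count reached 10 were fitted together over all 12 libraries with edgeR 4.0.16 in R 4.3.3 (TMM scaling, quasi-likelihood F test), with Benjamini-Hochberg adjustment in each of 6 contrasts (threshold 0.05). The contrasts with WT share its libraries. Log2 fold changes, also called log2 differences, come from this fit. The SE is the log2 fold change divided by the root of F. CPM are TMM-scaled. Alternatives used DESeq2 1.42.0, limma 3.58.1, other scalings and filters, a smooth length trend as an offset, and each library left out. The fit was tested on simulated data. Positions and sequences came from GENCODE M21 and RefSeq GRCm38.p6; 98.35% of genes matched GENCODE by symbol and position. Ratios were tested with scipy 1.17.1.

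The members and gene lists were chosen with earlier results of these data known. Named were all 10 members, every gene of the pathway lists past the threshold against WT (up to 5 per list and contrast), Gpi1, Tpi1, Eno1, Pgam1, Slc2a1 and Hif1a whatever their p, the targeted genes, and the 5 genes nearest the members' mean; others, such as Taldo1, Pfkm, Pfkfb4, Ldhb, Epas1 and single cell type markers, were chosen after their values were seen. Replicate numbers come from the titles. Same-numbered Hdac2 ECKO and Ezh2 ECKO-labelled libraries deviated together (correlations of 0.157, 0.377 and 0.106 across genes, all above 0.1), and a replicate block left their contrast without a called member.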

Additional observations from a re-analysis of the deposited data

How the results depend on the processing

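Every call of a member against WT was of a lower level. For Hdac2 ECKO against WT the count of called members, 1 by edgeR, was 5 with DESeq2, 5 with no filter on low counts, 7 with limma voom quality weights and 3 with only the 2 groups compared, and 0 to 5 without 1 library. For the Ezh2 ECKO-labelled libraries against WT it was 0 by edgeR, 4 with DESeq2, 4 with no filter and 6 with quality weights, and 0 to 4 without 1 library. For beta-catenin GOF against Hdac2 ECKO it was 0 by edgeR, 1 with DESeq2, 4 with no filter (3 higher and 1 lower) and 6 with quality weights, and 0 to 3 without 1 library. For beta-catenin GOF against the Ezh2 ECKO-labelled libraries it was 0 by edgeR, 3 with no filter and 4 with quality weights, and 0 to 2 without 1 library. The other 2 contrasts gave 0 members in every setting. The cause of these differences was not tested. Over all genes, calls by edgeR, with DESeq2, with no filter and with quality weights were 1157, 2497, 2279 and 5374 for Hdac2 ECKO against WT, 129, 1271, 1367 and 3743 for the Ezh2 ECKO-labelled libraries against WT, 9, 533, 978 and 3339 for beta-catenin GOF against Hdac2 ECKO, and 8, 144, 359 and 1462 for beta-catenin GOF against the Ezh2 ECKO-labelled libraries. With the length trend removed the first was 632.

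With the replicate number as a block, 4 members passed for Hdac2 ECKO and 2 for the Ezh2 ECKO-labelled libraries, both against WT. Calls over all genes were then 1832 and 536, instead of 1157 and 129. Same-numbered libraries of these groups and WT did not deviate together (correlations from −0.178 to 0.0944), so no pairing was assumed. Whether they share more than a number was not tested, as differently numbered libraries were not correlated. The block changed no other count of called members. Scaling by library size alone moved the median of all genes in Hdac2 ECKO from 0.10 to 0.34, and that of the members from −0.93 to −0.68. The summed level's log2 ratio to WT without 1 library ran from −1.83 to −1.16 for Hdac2 ECKO, from −1.63 to −0.82 for the Ezh2 ECKO-labelled libraries and from −0.42 to −0.02 for beta-catenin GOF. With 3 libraries a group, these spreads limit what can be called more than counting error does, except for Hk2.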
